A study of Mus musculus with 99 samples.

Results

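The genes described here encode the mechanotransduction channel complex of the cochlear hair cell, the tip link that pulls on it, and the calcium and integrin binding (CIB) proteins. They are Tmc1, Tmc2, Tmie, Lhfpl5, Cib1, Cib2, Cib3, Pcdh15, Cdh23 and Tomt. They were chosen by name, with earlier results of these data known, and make up 10 of the 55291 gene symbols in the count table, of which 26782 had a read in any cell. All 10 had reads in at least 1 cell, and 9 of them, all but Tmc2, reached 10 CPM (a gene's counts per 1000000 counts of the group) in either group.

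Hair cells turn sound into current when deflection of the stereocilia tightens the tip links, which gate channels at the lower end of each link. TMC1 and TMC2 form the pore. TMIE and LHFPL5 are membrane partners needed for a working channel, CIB2 and CIB3 bind the TMC proteins inside the cell, cadherin 23 and protocadherin 15 form the upper and lower parts of the tip link, and TOMT is needed to bring TMC proteins to the bundle. Outer hair cells (OHCs) amplify sound and inner hair cells (IHCs) drive the auditory nerve, and both cell types use this machinery.

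Single cells were picked by hand from digested cochleae of C57BL/6 mice and sequenced with full-length Smart-Seq HT chemistry. The control cells were 32 wild-type OHCs from Slc26a5-CreER/+; Ai9/+ mice at postnatal day 30. The second group was 67 converted IHCs (cIHCs) from Slc26a5-CreER/+; Rosa26Tbx2/+ mice at postnatal day 42, which are OHCs made to express Tbx2, a transcription factor of IHC identity. Both groups carry the inducible Cre driven by Slc26a5, the gene of the OHC motor protein prestin, and both were picked for tdTomato. Age, genotype and Tbx2 differ together between the groups and cannot be told apart. Sex-linked reads differed between the groups as well. Y-linked genes were read in 24 OHCs and 12 cIHCs, and Xist without them in 4 OHCs and 55 cIHCs. The part of sex in the ratios below was not tested. Since no label says which animal a cell came from, each group counts as 1 sample, no p-value is given, and all intervals are 95% intervals that cover counting error only. No cell is titled as an endogenous IHC, so levels in the cIHCs could not be set against those of the natural cell type.

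Total counts ranged from 5656512 to 9287413 per OHC and from 4677682 to 13792672 per cIHC. Genes with reads were fewer in OHCs (median 6068.5) than in cIHCs (median 8546), also after thinning every cell to 1 depth (5899 and 8321). The 10041 genes that reached 10 CPM in either group had a median log2 ratio (cIHC over OHC) of 0.25, so ratios near that value follow the bulk of genes. The labels matched the identity genes: pooled Tbx2 was 0.0124 CPM in OHCs and 730.7 CPM in cIHCs, Slc26a5 was 2080 and 0.303, Ocm was 44926 and 239.4, Slc17a8 was 69.2 and 1179, and Otof was 542.8 and 2956. Markers of other cell types were low for supporting cells (10 genes, summed 41.02 and 23.6 CPM), glia (5 genes, 14.3 and 8.19 CPM) and blood or macrophages (8 genes, 9.46 and 53.8 CPM). The summed level per cell of these lists ran from 0 to 967.6 in OHCs and from 0 to 899.4 in cIHCs. Slc1a3, Lfng, C1qa, C1qb and Cx3cr1 were at 0 in OHCs, and Epyc, Prox1, Pmp22, C1qa and Cx3cr1 were at 0 in cIHCs. C1qb made up 48.2 CPM of the 53.8 CPM for blood or macrophages in cIHCs, with reads in 35 of those cells. The 8 spiral ganglion neuron genes summed to 639.0 CPM in OHCs (0 to 2544 per cell) and 8838 CPM in cIHCs (164.9 to 26909 per cell). Calb1 made up 383.4 and 8310 CPM of that, while Prph and Th were at 0 in both groups and Nefh was at 0 in OHCs. Nefm was at 19.2 and 176.1 CPM, with reads in 13 OHCs and 65 cIHCs, and Nefl at 53.9 and 123.6 CPM, in 17 and 61 cells. Snap25 was at 182.4 and 216.9 CPM, Tubb3 at 0.0372 and 10.9 CPM, and Nefh at 0.320 CPM in cIHCs. The 9 genes of the early response to dissociation summed to 1069 and 1895 CPM, and mitochondrially encoded genes made up a median of 6.68% and 3.47% of counts. The part of other cells and of RNA quality in the levels below was not tested.

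Among the transduction genes, Cib3 differed most. It had no read in any OHC and reads in most cIHCs, and it is a close relative of Cib2, which was abundant in every cell. The deposited counts rest on telling the paralogs apart, so their sequences are shown first. Over 480 aligned coding bases, Cib2 and Cib3 were identical at 306 (63.75%). Cib1 was identical to Cib2 at 59.7% and to Cib3 at 58.3% of aligned coding bases. The most alike stretch of 60 coding bases of Cib2 and Cib3, bases 310 to 369 of the Cib2 coding sequence and 229 to 288 of the Cib3 coding sequence in GENCODE M21 (build GRCm38, the NCBI name of mm10), held 52 identical and 8 different bases, written in capitals:
Cib2: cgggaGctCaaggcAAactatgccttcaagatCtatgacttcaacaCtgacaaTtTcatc
Cib3: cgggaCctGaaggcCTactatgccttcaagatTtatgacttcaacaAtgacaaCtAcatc
No 50-base stretch of any of the 10 genes' exons occurred in the exons of another of them. Stretches of 50 bases were shared with other genes outside the set by Tmc2 (259 genes), Tmc1 (21 genes), Tomt (3 genes), Tmie (1 gene) and Cib2 (1 gene). Tomt shared 65.6% of its stretches with Anapc15, Cib2 12.9% with Sh2d7 and Tmie 6.41% with Als2cl. With any 1 gene, Tmc2 shared at most 0.884% and Tmc1 at most 0.0700%.

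All 10 genes are protein-coding in that annotation. Tmc1 lies at chr19:20783458-20954202, Tmc2 at chr2:130195194-130264445, Tmie at chr9:110865711-110880113 and Lhfpl5 at chr17:28575641-28585679. Cib1 lies at chr7:80227147-80232813, Cib2 at chr9:54544794-54560218 and Cib3 at chr8:72204335-72212837. Pcdh15 lies at chr10:73099342-74649737, Cdh23 at chr10:60302748-60696490 and Tomt at chr7:101898370-101906359. The values count reads assigned to a gene as a whole, and do not separate exons or isoforms. Exons of 3 members overlap those of a gene on the other strand: Tomt shares 1981 bases (69.3% of its exon bases) with Anapc15, Tmie shares 244 bases (7.89%) with Als2cl, and Cib2 shares 227 bases (15.8%) with Sh2d7. The Smart-Seq chemistry does not mark strand, so reads in those stretches cannot be told apart from reads of the neighbour.

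The cIHCs express a T-box factor and Cib3 was read only in them, so the RefSeq promoter window of Cib3 is printed as well (GRCm38.p6, chr8:72212788-72213087, minus strand, 250 bases before to 50 bases after the annotated start). The capitals mark its 1 copy of the T-box core GGTGTG, which begins 83 bases before the start:
Cib3 promoter: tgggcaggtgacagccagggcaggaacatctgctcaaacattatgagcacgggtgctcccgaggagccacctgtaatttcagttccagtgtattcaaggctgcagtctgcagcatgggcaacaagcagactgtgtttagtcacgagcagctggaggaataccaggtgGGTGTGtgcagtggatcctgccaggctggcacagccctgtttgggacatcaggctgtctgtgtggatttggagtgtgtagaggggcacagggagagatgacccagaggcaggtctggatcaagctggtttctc
The core, searched on both strands, was found in 5124 of 27025 RefSeq promoter windows of this length (18.96%). The longer T-box site AGGTGTGA, which contains the core, occurred in 344 of them (1.27%) and in none of the members' windows. Of the 9 members with a window, Tmc1 also held 1 core, 215 bases before its start, and the other 7 held none. Whether Tbx2 binds either core was not tested. The Cib3 window had 55.7% G and C and 3 CG pairs, against 71.3% and 20 CG pairs in the Cib2 window and medians of 52.7% and 7 over all windows. Beginning 137 bases before the annotated start, the Cib3 window also matched the first 51 coding bases of Cib2 at 40 positions. No other of the 27025 windows matched them as well, and the median best match was 22 positions. The marked core lies past the end of this stretch. The annotated coding sequence has 480 bases in Cib3 and 561 in Cib2. Whether transcription of Cib3 begins upstream of the annotated start, so that the core would lie inside the gene, was not tested.

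Of the 9 members past 10 CPM, 3 were at least 2-fold higher in cIHCs by pooled CPM (Cib3, Tomt and Cib1), beside 26.3% of all genes tested. At least 2-fold lower were 3 (Cdh23, Tmie and Lhfpl5), beside 14.3% of all genes. The median log2 ratio of the 9 was 0.05, against 0.25 over all genes. Cib1 and Lhfpl5 lay just past the fold. Cib1 dropped below it with means over cells, under every other scaling or total, in either subset by sex-linked reads and after thinning. It stayed past 2-fold without its highest cells and without cells of few genes, and had no value for medians over cells. Lhfpl5 dropped below 2-fold with means or medians over cells, in either subset by sex-linked reads, without its highest cells and after thinning. No other scaling took Lhfpl5 below 2-fold. No member separated the groups completely: 0 of 9 had every cIHC above every OHC, beside 0.0797% of all genes, and 0 of 9 had every cIHC below every OHC, beside 0.0896%.

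**Figure D1:**
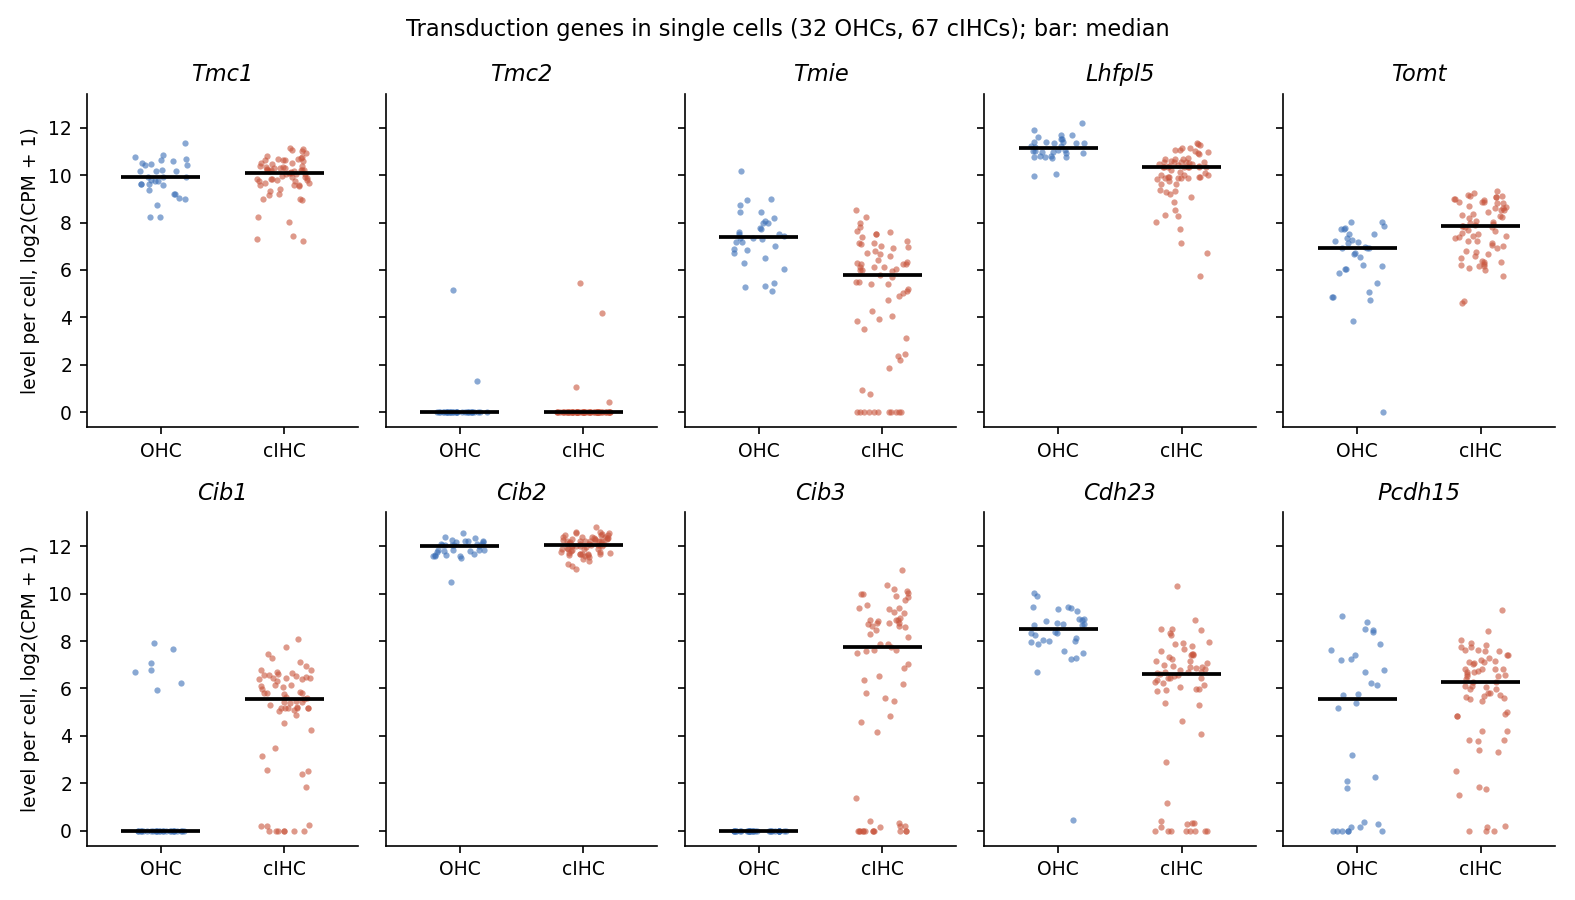
Level of each of the 10 genes in every cell, as log2(CPM + 1) on the vertical axis, with 32 OHCs in blue and 67 cIHCs in red; points are cells and bars are medians. Cib3 lies at 0 in all OHCs and spreads from 0 to 2053 CPM in cIHCs, while Tmc1 and Cib2 cover like ranges in both groups.

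Tmc1, the pore subunit of mature hair cells, was present in all 32 OHCs and all 67 cIHCs. Its level ran from 296.0 to 2610 CPM in OHCs (median 974.6) and from 145.9 to 2237 CPM in cIHCs (median 1093). The groups overlapped almost wholly, with 4 cIHCs below the lowest OHC and 1 OHC above the highest cIHC. The pooled levels of 1054 and 1092 CPM gave a log2 ratio of 0.05 (0.04 to 0.06). When every cIHC was paired with every OHC, Tmc1 was higher in the converted cell in 54.5% of pairs. The sign of so small a ratio depended on the scaling, and under median-of-ratios scaling the cIHC was higher in 45.6% of pairs.

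Tmc2, the pore subunit that precedes Tmc1 in developing cochlear hair cells, was near absent. Reads occurred in 2 of 32 OHCs and 4 of 67 cIHCs, with maxima of 34.97 and 42.9 CPM. These shares, 6.25% and 5.97%, equal the medians for genes within 1.2-fold of the Tmc2 pooled level in the same group. Of 328 counts in OHCs, 96.6% came from 1 cell, and of 515 counts in cIHCs, 66.6% did. The pooled levels of 1.36 and 0.947 CPM are therefore those of a few cells, and no comparison is drawn from them.

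Tmie, the transmembrane partner without which the channel does not conduct, was lower in cIHCs. OHC levels ran from 33.9 to 1139 CPM with a median of 165.6, and cIHC levels from 0 to 364.5 CPM with a median of 54.2. Every OHC had Tmie reads, but only 56 of 67 cIHCs did (83.6%, 72.5 to 91.5), a share close to the median of 88.1% among genes of like level in cIHCs. Fully 27 cIHCs lay below the lowest OHC and 58 lay below the OHC median, although the ranges overlapped. Pooled Tmie was 221.9 CPM in OHCs and 71.3 CPM in cIHCs, 3.11-fold lower (log2 ratio -1.64, -1.66 to -1.62). Als2cl, whose exons overlap Tmie on the other strand, was at 32.7 and 3.37 CPM, with reads in 14 of 32 OHCs and 9 of 67 cIHCs, and its part in the Tmie count was not tested.

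Lhfpl5, which couples protocadherin 15 to the channel, was about 2-fold lower in cIHCs. It ran from 991.7 to 4683 CPM in OHCs (median 2251) and from 52.7 to 2620 CPM in cIHCs (median 1295), with reads in every cell of both groups. In cIHCs 26 cells lay below the lowest OHC, and 12 OHCs lay above the highest cIHC. The pooled levels of 2411 and 1197 CPM gave a log2 ratio of -1.01 (-1.02 to -1.01). In 89.7% of cell pairs the cIHC was the lower one. The ratio was on the edge of the 2-fold limit, at -0.80 for medians over cells and -1.23 with median-of-ratios scaling.

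Tomt, the transport factor for TMC proteins, had higher pooled levels in cIHCs. OHC levels ran from 0 to 259.9 CPM with a median of 120.6, and cIHC levels from 23.4 to 638.6 CPM with a median of 228.7. Reads were found in 31 of 32 OHCs and all 67 cIHCs. The highest 28 cIHCs lay above every OHC. Pooled Tomt was 116.7 CPM in OHCs and 283.3 CPM in cIHCs, or 2.43-fold higher (log2 ratio 1.28, 1.26 to 1.30).

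The Tomt difference was not shared by all cIHCs. Cells can be sorted by their expressed sex-linked genes: Y-linked genes were read in 24 OHCs and 12 cIHCs, and Xist without them in 4 OHCs and 55 cIHCs. Among the cells with Y-linked reads, Tomt had a median of 121.7 CPM in OHCs (0 to 259.7) and of 80.02 CPM in cIHCs (23.4 to 164.8). The pooled levels there were 121.9 and 86.1 CPM, a log2 ratio of -0.50, the opposite sign. Among the cells with Xist reads, the medians were 26.4 CPM over 4 OHCs (13.1 to 212.1) and 267.0 CPM over 55 cIHCs (52.7 to 638.6), a log2 ratio of 2.07. The 12 cIHCs with Y-linked reads also had fewer total reads (median 6641390) than the 55 with Xist reads (median 8098520), and over all 67 cIHCs Tomt followed the total reads of the cell (Spearman 0.68). Low Tomt was not limited to the cells with Y-linked reads: of the 18 cIHCs below the OHC median, 11 had Y-linked reads and 7 had Xist reads. The cells with Y-linked reads were those numbered 1 to 12 in the titles, and over the 55 others Tomt followed the title number (Spearman 0.57) and the total reads (0.56). What the numbers stand for is not given, and the parts of animal, sex and depth in the Tomt level were not tested. Anapc15, which overlaps Tomt, was at 3.15 CPM in OHCs and 26.7 CPM in cIHCs, and its level over cIHCs had a Spearman correlation of 0.49 with Tomt. The Anapc15 counts were 14524 in cIHCs, and the part of its reads in the Tomt count was not tested.

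The CIB genes showed 3 patterns. Cib2, the family member needed for hearing, was the most abundant of the 10 genes and had like levels in both groups. It ran from 1444 to 6095 CPM in OHCs (median 4145) and from 2081 to 7162 CPM in cIHCs (median 4301), and no cell lacked it. The pooled levels of 4004 and 4371 CPM gave a log2 ratio of 0.13 (0.12 to 0.13), below the all-gene median of 0.25. Cib2 also varied least from cell to cell of any member, with a coefficient of variation of 0.23 in OHCs and 0.25 in cIHCs. Its ratio took the other sign with a TMM factor, with median-of-ratios scaling and, at its lowest value of -0.23, in cells with Y-linked reads.

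Cib3, a relative of Cib2 with a known role in vestibular hair cells, had 0 of 242054710 counts in OHCs and 187442 counts in cIHCs. No OHC had a read, and with 3 cells of 32 as the limit for a count of 0 the share could be up to 9.38%, for counting error alone. Reads were found in 55 of 67 cIHCs (82.1%, 70.8 to 90.4), and 49 cIHCs had at least 10 CPM. The cIHC levels ran from 0 to 2053 CPM with a median of 214.9, and the highest cell held 8.87% of the counts. Pooled Cib3 was 344.6 CPM in cIHCs, and its log2 ratio was at least 14.76 when 3 counts over all OHCs are taken as the floor. After thinning to 1 depth the share of cIHCs with reads was 81.8%.

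Cib3 was uneven among the cIHCs for a gene of its level. Among the 232 genes within 1.2-fold of its pooled level in cIHCs, the median gene had reads in 100% of cells and the 5th percentile was 97.8%, and every one of them was read in a larger share of cells than Cib3. The 12 cIHCs without Cib3 and the 55 with it were not compared in other genes, since that would group cells by a measured level. Over the 67 cIHCs Cib3 did not follow the Tbx2 level (Spearman -0.17), the total reads (-0.06) or the number of genes with reads (0.06). Its median was 11.7 CPM (0 to 1189) in the 12 cIHCs with Y-linked reads and 283.0 CPM (0 to 2053) in the 55 with Xist reads, and in both sets the OHCs were at 0. Reads were found in 7 of these 12 and 48 of these 55.

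Within single cIHCs, Cib3 made up a median of 4.53% of the reads of Cib2 and Cib3 together, from 0 to 30.5%. The share was above 10% in 20 cells. Per base of annotated exon the median share was 3.27%. The annotation holds 2 Cib3 transcripts, a coding one of 585 bases and a longer one with a retained intron, and per base of the coding transcripts the median share was 10.4% (highest 51.8%). Which transcript the reads came from was not tested, so the per-length share is uncertain by that range. Cib3 was thus read in addition to Cib2, which had reads in every cIHC. The summed level of Cib1, Cib2 and Cib3 had a median of 4145 CPM in OHCs (1518 to 6095) and 4763 CPM in cIHCs (2297 to 7423). That sum is mostly Cib2 and is not set per length, so it cannot show whether Cib3 replaces part of Cib2.

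**Figure D2:**
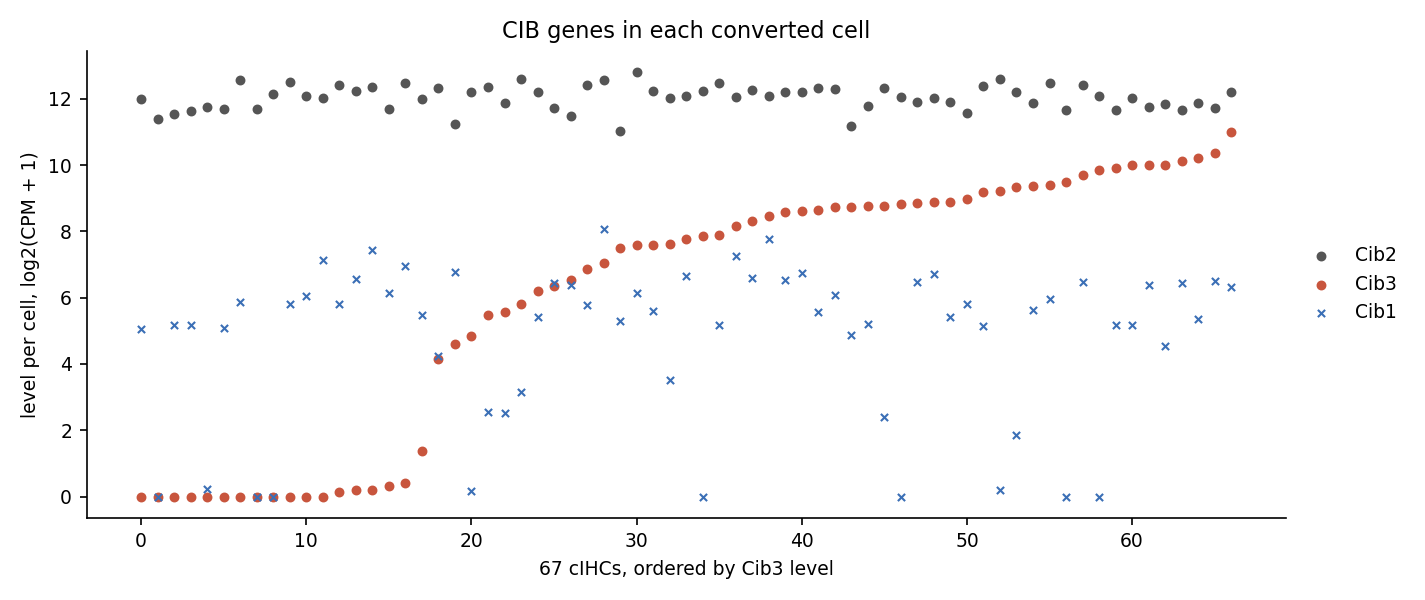
Levels of Cib2 (grey), Cib3 (red) and Cib1 (blue crosses) in each of the 67 cIHCs, as log2(CPM + 1) on the vertical axis, with the cells ordered by Cib3 on the horizontal axis. Cib2 stays between 2081 and 7162 CPM in every cell, above Cib3 throughout, while 12 cells have no Cib3 read.

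Cib1, the broadly expressed founding member of the family, was read in few OHCs and most cIHCs. Reads were found in 7 of 32 OHCs (21.9%, 9.28 to 39.97) and 60 of 67 cIHCs (89.6%, 79.7 to 95.7). The OHC median was 0, with a highest cell of 241.8 CPM, and the cIHC levels ran from 0 to 270.0 CPM with a median of 46.5. Pooled Cib1 was 28.4 CPM in OHCs and 57.8 CPM in cIHCs, or 2.03-fold higher (log2 ratio 1.02, 0.99 to 1.06). The gap in cells with reads was wider than the gap in pooled level. Genes within 1.2-fold of the Cib1 level in OHCs were read in a median of 40.6% of OHCs, and the share for Cib1 was below that of 92.4% of them. Genes within 1.2-fold of its higher level in cIHCs were read in a median of 83.6% of cIHCs. Cib1 passed 2-fold in the pooled CPM, but its log2 ratio was 0.83 with a TMM factor and 0.26 among cells with Xist reads.

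Of the tip link pair, Cdh23 was lower in cIHCs and Pcdh15 was not. Cdh23 forms the upper part of the link. OHC levels of Cdh23 ran from 0.358 to 1031 CPM with a median of 367.6, and cIHC levels from 0 to 1264 CPM with a median of 96.7. All 32 OHCs and 59 of 67 cIHCs (88.1%) had reads, and 65 cIHCs lay below the OHC median. The ranges overlapped, with 13 cIHCs below the lowest OHC and 1 above the highest. That lowest OHC was 1 cell at 0.358 CPM, and the next lowest was at 101.5 CPM. Pooled Cdh23 was 402.9 CPM in OHCs and 123.4 CPM in cIHCs, 3.26-fold lower (log2 ratio -1.71, -1.72 to -1.69).

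Pcdh15 forms the lower part of the link and binds the channel complex. Its levels ran from 0 to 527.3 CPM in OHCs (median 46.4) and from 0 to 634.9 CPM in cIHCs (median 76.0). Reads were found in 26 of 32 OHCs (81.3%) and 64 of 67 cIHCs (95.5%), against medians of 81.3% and 92.5% for genes of like level. The pooled levels of 104.7 and 90.4 CPM gave a log2 ratio of -0.21 (-0.23 to -0.19), while the medians over cells gave 0.71, so no direction can be given. Every cell of both groups had reads of at least 1 tip link gene, and both genes were read in 26 of 32 OHCs and 56 of 67 cIHCs.

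**Figure D3:**
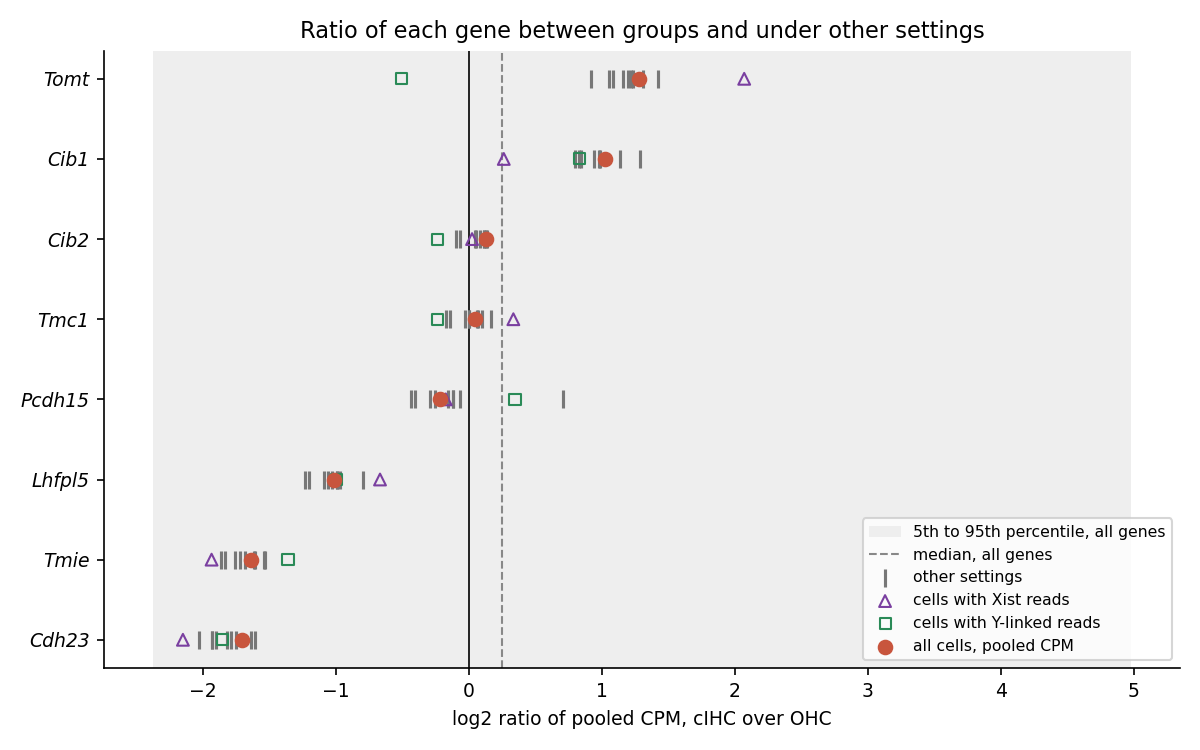
Log2 ratio of cIHC over OHC on the horizontal axis for 8 genes. Red points are pooled CPM over all cells, grey ticks other settings, triangles cells with Xist reads and squares cells with Y-linked reads; the dashed line is the median of all genes (0.25) and the band their 5th to 95th percentile (-2.37 to 4.98). Tmie and Cdh23 stay at or below -1.36 in every setting, and Tomt spans -0.50 to 2.07; Cib3, whose ratio is a bound, and Tmc2 are left out.

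The same shifts appeared when partners were set against Tmc1 in the same cell, which removes the scaling between cells. Tmc1 had like levels in both groups (pooled log2 ratio 0.05), so these ratios reuse the partner counts and are not an independent check. The median ratio of Lhfpl5 to Tmc1 reads was 2.22 in OHCs (0.895 to 9.79) and 1.09 in cIHCs (0.124 to 17.5), with 60 of 67 cIHCs below the OHC median. For Tmie the median ratio was 0.149 in OHCs (0.0293 to 1.16) and 0.0429 in cIHCs (0 to 0.656). For Cdh23 it was 0.453 in OHCs (0.000225 to 1.57) and 0.0808 in cIHCs (0 to 0.811). These 3 partners were lower relative to the pore subunit in most cIHCs, and the cIHC ratio was the lower one in 87.7%, 79.4% and 87.5% of cell pairs.

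The ratio of Cib2 to Tmc1 showed no such shift, with medians of 4.24 in OHCs (0.553 to 15.9) and 4.03 in cIHCs (1.21 to 36.2). The ratio of Tomt to Tmc1 had medians of 0.110 (0 to 0.392) and 0.190 (0.0294 to 2.98). Within the tip link, the median ratio of Cdh23 to Pcdh15 reads was 3.87 over the 22 OHCs and 1.18 over the 62 cIHCs with at least 10 Pcdh15 reads, and 54 of those cIHCs lay below the OHC median. Reads of Tmc1, Tmie, Lhfpl5 and Cib2 were found together in 32 of 32 OHCs and 56 of 67 cIHCs, the same counts as for Tmie alone. OHCs had reads of 6 to 8 members (median 7) and cIHCs of 5 to 10 (median 9), and all 3 CIB genes were read in 51 cIHCs and 0 OHCs.

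**Figure D4:**
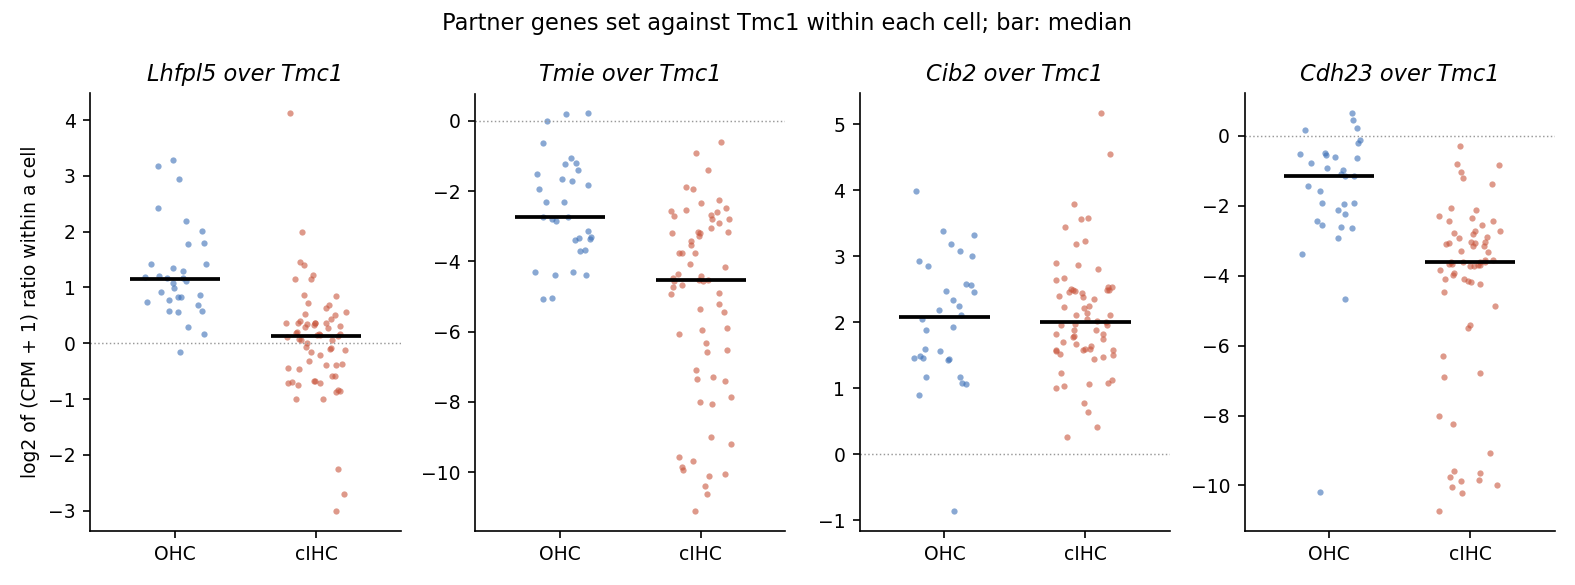
Ratio of 4 partner genes to Tmc1 within each cell, as log2 of the ratio of (CPM + 1) on the vertical axis, for 32 OHCs (blue) and 67 cIHCs (red), with medians as bars and equal levels dotted. Lhfpl5, Tmie and Cdh23 sit lower in cIHCs, with overlap, and Cib2 does not.

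Levels of different genes can be ranked only per length. In RPKM (CPM divided by annotated exon length in kilobases), the order in OHCs was Cib2 (2794), Lhfpl5 (1010), Tmc1 (146.6), Tmie (71.7), Tomt (40.9), Cdh23 (23.8), Cib1 (12.4), Pcdh15 (4.41), Tmc2 (0.421) and Cib3 (0). In cIHCs the RPKM order was Cib2 (3051), Lhfpl5 (501.2), Cib3 (171.1), Tmc1 (151.8), Tomt (99.2), Cib1 (25.1), Tmie (23.1), Cdh23 (7.29), Pcdh15 (3.80) and Tmc2 (0.294). Cib2 was above Lhfpl5 in all 32 OHCs and all 67 cIHCs on this length, and in 29 OHCs and 67 cIHCs per longest coding transcript. Several neighbours did not differ beyond their spread over cells: Tmie was above Tomt in 17 of 32 OHCs, Cib3 above Tmc1 in 27 of 67 cIHCs, and Cib1 above Tmie in 34 of 67 cIHCs. The pooled rank of Cib1 over Pcdh15 in OHCs went against most cells, since Cib1 was higher in only 7 of 32. The RPKM order was the same with the length of the longest coding transcript, where Cib3 was above Tmc1 in 38 of 67 cIHCs and Cdh23 above Pcdh15 in 33 of 67.

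Correlations between members over cells ran from weak to moderate, in both directions. Whether members vary independently of each other was not tested. Spearman correlations of log2(CPM + 1) between members read in at least 80% of the cells of a group ran from -0.35 to 0.37 over 32 OHCs (21 pairs, median -0.01) and from -0.37 to 0.46 over 67 cIHCs (36 pairs, median -0.01). The cells share an unknown number of animals and each value shares the library total, so these are descriptions. The highest values in cIHCs were 0.46 for Cib2 with Tomt, 0.38 for Tmc1 with Cdh23, 0.35 for Tmc1 with Lhfpl5 and 0.33 for Lhfpl5 with Cdh23, and the lowest was -0.37 for Lhfpl5 with Tomt. Cib2 and Tomt also both followed the title number (0.35 and 0.74) and the total reads (0.29 and 0.68), whose part in their correlation was not tested. Over the same cells, Tbx2 had its lowest correlation with Lhfpl5 (-0.51) and its highest with Tomt (0.47). The number of genes with reads was inversely related to Cdh23 (-0.56), Tmc1 (-0.45) and Lhfpl5 (-0.41). These relations were not separated from the Tbx2 ones, and their part in each other was not tested.

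Among the 9095 genes with at least 10 CPM in cIHCs, those whose level over the 67 cIHCs was most like that of Lhfpl5 were Kcp (Spearman 0.67), Kcna10 (0.65) and Gltp (0.64). For Tmc1 they were Skp1a (0.62), Arfgef1 (0.57) and Adcy2 (0.55), and for Cib2 Ftl1 (0.66), Selenow (0.66) and Gm30191 (0.64). Cib3 had the weakest such neighbours, Selenom (0.47), Mrps5 (0.47) and Defb25 (0.43). For Tmie they were Nufip2 (0.55), Dnm2 (0.48) and Rbm12 (0.44). Each is the top of many correlations over the same cells and is given as a description.

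The wider pathway was read from 6 lists with 37 genes in the table, of which 23 passed 10 CPM. At least 2-fold higher in cIHCs were 8 of the 23, and at least 2-fold lower were 5, beside the same 26.3% and 14.3% of all genes. Their median log2 ratio was 0.11. Among the paralogs of the pore subunits, Tmc4 alone passed, at 82.0 and 72.5 CPM (log2 ratio -0.18), and Tmc3 and Tmc8 had no read. Of 5 relatives of Lhfpl5, 2 passed: Lhfpl4, a partner of inhibitory receptors in neurons, was at 50.5 and 27.6 CPM (-0.87), and Lhfpl1 was at 0 in OHCs and 15.6 CPM in cIHCs (at least 10.30). Of 6 relatives of the CIB proteins, 3 passed, led by Chp1 at 34.5 and 104.2 CPM (1.59), while Tesc, a calcium-binding regulator, was at 383.2 and 177.8 CPM (-1.11).

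Of the 5 anchors and motors at the ends of the tip link, 4 passed. The scaffold Ush1g was at 4.10 and 14.3 CPM (1.801) and the motor Myo7a at 529.6 and 656.8 CPM (0.31). Ush1c, which encodes harmonin, was at 507.7 and 323.2 CPM (-0.65), and Myo1h at 52.03 and 4.56 CPM (-3.51). Of the 4, Ush1g was past 2-fold higher and Myo1h past 2-fold lower.

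Genes of links other than the tip link differed in both directions. All 7 genes described of these ankle and shaft links passed 10 CPM, with 5 at least 2-fold higher and 1 at least 2-fold lower, beside 26.3% and 14.3% of all genes. Vezt, a membrane protein of the ankle links, was at 6.46 CPM in OHCs and 58.1 CPM in cIHCs (3.17), and Whrn, their scaffold whirlin, at 11.7 and 90.4 CPM (2.95). Pdzd7, another ankle link scaffold, was at 73.7 and 5.13 CPM (-3.84). So the scaffold genes Whrn and Pdzd7 took opposite directions. Of 8 other bundle proteins, 6 passed, with 0 at least 2-fold higher and 2 lower, beside those same shares of all genes. The lowest was Strc, stereocilin of the OHC top connectors, at 633.5 and 37.0 CPM (-4.10), followed by Grxcr1 at 223.4 and 108.7 CPM (-1.04). Minar2 was at 687.3 and 741.5 CPM (0.11), and Grxcr2 at 1407 and 1105 CPM (-0.35).

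**Figure D5:**
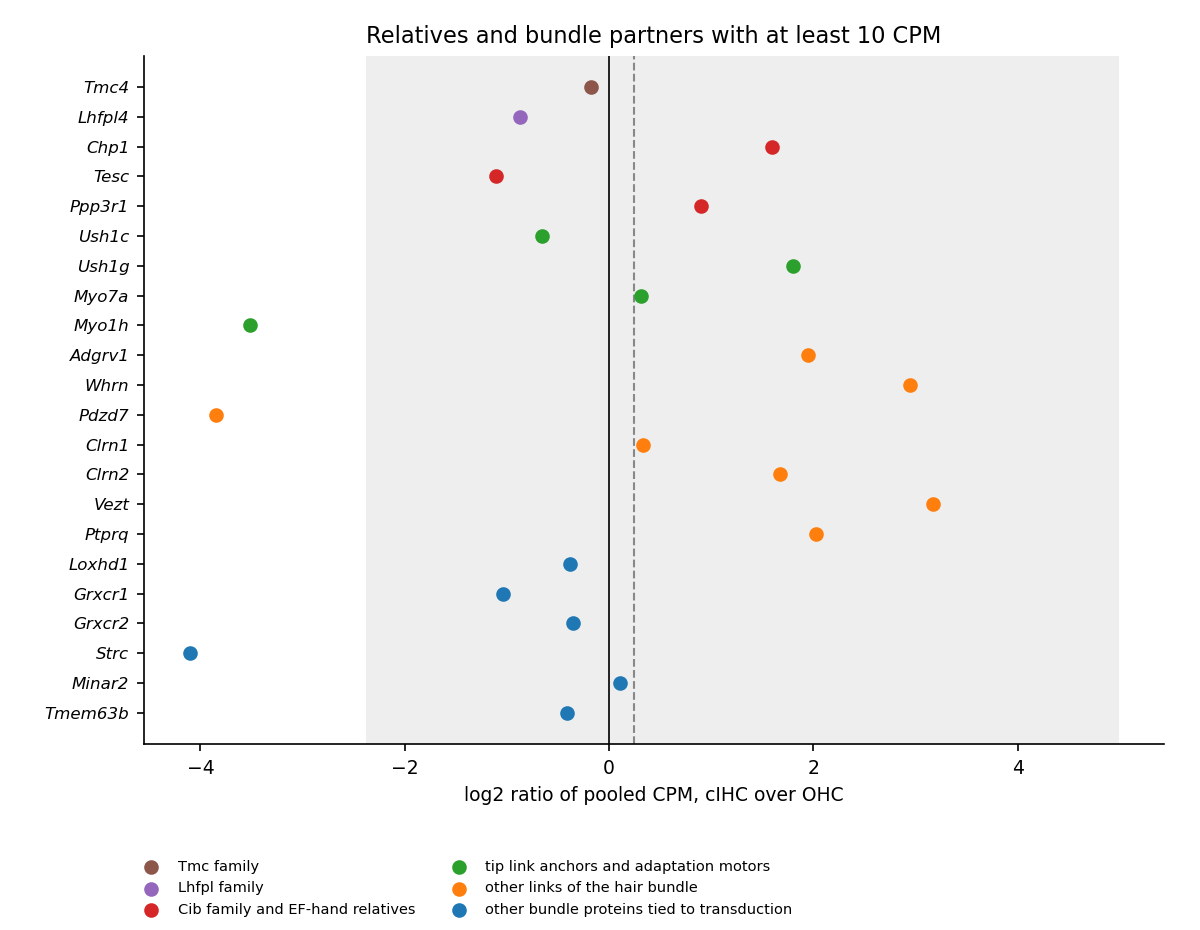
Log2 ratio of pooled CPM, cIHC over OHC, on the horizontal axis for 22 of the 23 related genes with at least 10 CPM, coloured by list; Lhfpl1, whose ratio is a bound, is left out. The dashed line and band are the median (0.25) and 5th to 95th percentile of all genes. Myo1h, Pdzd7 and Strc lie below the band, and Vezt and Whrn are the highest.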

How the data were processed

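The authors deposited 1 table of whole-number read counts per gene and cell, with 99 cells and 55291 symbols. The submitters' processing notes name HISAT2 2.2.1, StringTie 2.2.1, featureCounts 2.0.1 and the build mm10; roles, annotation, strand setting and filters are not given in the sources used here. The table had 0 columns of no sample and 0 pairs of identical columns. All cells were used, with no filter and no doublet caller, since cells were picked singly.

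Columns were matched to cells, and cells to groups, by title. Counts were summed per group and divided by the group total to give CPM, with exact Poisson intervals; ratios have exact conditional binomial intervals and shares of cells exact Clopper-Pearson intervals, all at 95%. A sum of 0 was set to 3 counts, and 0 of n cells to a limit of 3 of n. Intervals cover counting error only, since amplified reads with no molecular identifiers do not count single molecules. Fold limits of 2 apply to genes that reached 10 CPM in either group. No test was made, because each group is 1 sample. Lengths, positions and coding sequences came from GENCODE M21, which held 96.4% of the symbols, and promoters from RefSeq GRCm38.p6, which held 9 of the 10 members. Correlations used log2(CPM + 1).

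The members and lists were chosen with earlier results of these data known. Named genes are the members; of each list at most the 2 highest and 2 lowest ratios past 10 CPM and any gene at 0 in 1 group; the 3 genes most like Tmc1, Cib2, Cib3, Tmie and Lhfpl5; and 5 identity genes. The ratios within a cell, taken where the denominator had at least 10 reads, the relation of levels to title numbers, the shares of cells for genes of like level, the match between the Cib3 window and Cib2, and Anapc15, Als2cl, Sh2d7, Calb1 and the other named markers were added after values had been seen. Alternatives were other summaries over cells, TMM factors (edgeR), median-of-ratios scaling, other totals, subsets of cells and thinning to 5770000 reads, which 29 OHCs and 66 cIHCs reached. Only the ratio of pooled counts was tested on simulated counts with known folds. Python 3.11.15, numpy 2.4.6, pandas 2.3.3, scipy 1.17.1, matplotlib 3.10.9, R 4.3.3 and edgeR 4.0.16 were used. 1 gene of a pathway list is not reported here, and the list was counted without it. OHCs of an earlier study, mentioned in the design text, were not analysed here.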

Additional observations from a re-analysis of the deposited data

How the results depend on the processing

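Cib3, wherever it had a value, and Tmie and Cdh23 stayed past 2-fold in the same direction in every setting run. The count of members at least 2-fold higher was 3 in pooled CPM, also without the highest cells and without cells of few genes. It was 2, without Cib1, with means over cells, under other scalings and totals, after thinning and in cells with Xist reads. With medians over cells it was 0, where Cib3 and Cib1 have no value because their OHC medians are 0. Among cells with Y-linked reads, where fewer cells are used, it was 1. The log2 ratio of Tomt was -0.50 among cells with Y-linked reads, and the cause was not tested. Of 107 recomputed member ratios, 7 stayed within their counting interval and 99 were counted as moved. Those 99 include the 10 ratios of Cib3, which are bounds and have no counting interval. The remaining 1, that of Tomt, was the only ratio of a member past 2-fold to change sign. TMM and median-of-ratios scaling shifted every ratio by -0.19 and -0.22, which changes the sign of Tmc1 and Cib2. The minimum of 1 CPM put 33.97% of all genes at least 2-fold higher and 19.7% at least 2-fold lower. A pseudocount of 10 CPM cannot change ranks, and so left the Spearman correlations as they were. Pearson correlations and the Cib3 share per coding base were chosen after seeing the data. No paired analysis was possible because no label ties a title number to an animal or day that both groups share, and no test was made. Leaving out replicates was not possible with 1 sample a group. At these depths, counting error is small beside the spread between cells, and the spread between animals is unknown.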
